A study of Mus musculus with 8 samples.

Results

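The change of gene expression between postnatal day (PD) 24 and PD 52 was followed in spermatocytes of MFN2 cKO mice. The MFN2 cKO libraries were 4 of the 8 libraries of the study, 1 for each stage (P or L/Z) at each age, and PD 52 was compared with PD 24 within each stage. Of 54532 genes listed, 20134 had more than 1 FPKM (read pairs adjusted for gene length and depth) in at least 1 of these 4 libraries and were compared, and 13855 of them were protein-coding. The same contrast in the 4 MFN2 WT libraries was used to see where MFN2 cKO differed.

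MFN2 is a GTPase of the outer mitochondrial membrane that fuses mitochondria and tethers them to the endoplasmic reticulum. Male germ cells pass from spermatogonia through meiosis as spermatocytes, first leptotene and zygotene, when homologous chromosomes pair, and then the long pachytene stage, when they recombine. The haploid spermatids that follow are round at first, build the acrosome and then elongate, grow a tail and replace their histones with transition proteins and then protamines. The first wave of germ cells moves through these steps nearly in step in the juvenile testis, so elongating spermatids are scarce or absent around weaning, whereas the adult testis holds every step at once.

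All mice were of the C57BL/6J strain and carried Mfn2 alleles with loxP sites around exon 6. MFN2 cKO mice were Mfn2 loxp/loxp with Stra8-Cre, a recombinase driven in male germ cells from early spermatogonia to the start of meiosis, so that other cells of the testis kept the gene. MFN2 WT mice are labelled Mfn2 loxp/loxp without the Cre, and the study also counted mice with a single floxed allele among them. The fractions P (pachytene) and L/Z (leptotene and zygotene) were separated by sedimentation through albumin and judged by cell diameter and shape, not by a marker. Each group was 1 library, and the number of mice behind a library is not given in the sources used here. No comparison within a stage therefore has a test, and the 2 stages of a genotype stand in for a pair of repeats in the paired fit.

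The libraries held between 14340665 and 20379950 reads on genes, and those of MFN2 cKO between 14340665 and 16808982. The deposited values were close to a scaling by the median of the gene ratios, which would have multiplied them by further factors of 0.987 to 1.035 only, and the median change of the 20134 genes was 0.015 (P) and 0 (L/Z) in MFN2 cKO. A scaling to equal total reads would lower the median change by 0.11 in P and by 0.30 in L/Z, and directions that turn with it are named below. Of the single genes named below, the mean change of Syce1, Zpbp2, Cox8c, Ddx4 and Fxyd1 in MFN2 cKO turned from above to below 0 with it. The fraction labels matched their markers in part. Of 34 leptotene and zygotene genes compared, 17 were higher in L/Z than in P of MFN2 cKO at PD 24 and 13 at PD 52, so these genes did not tell the fractions apart. Of 23 pachytene genes, 7 were higher in L/Z than in P at PD 24 and 11 at PD 52. Piwil1, a piRNA-binding protein, was picked for its wide gap and stood at 218 and 172 FPKM in P and at 19.9 and 16 in L/Z. Both ages of L/Z held more RNA of late spermatids than P. The summed level of 12 genes of nuclear condensation went from 67.9 to 1827 in P and from 192 to 18426 in L/Z, and the library MFN2 cKO L/Z PD 52 stands apart from the other 3 in this. Each result is therefore given for P and for L/Z separately.

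Mfn2 itself (ENSMUSG00000029020) was measured over the whole gene, which spans 147873599 to 147904704 on chromosome 4 (GRCm38, minus strand). In MFN2 cKO it went from 39.6 to 50.1 FPKM in P and from 34.3 to 47.9 in L/Z. In MFN2 WT it went from 77.1 to 62.2 FPKM in P and from 82.2 to 97.5 in L/Z, so it was lower in MFN2 cKO in each of the 4 matched pairs of libraries. Its reads are not split by exon, and reads of exons that were not deleted count in full. The change with age in MFN2 cKO was 0.33 in P (95% counting interval 0.27 to 0.40) and 0.47 in L/Z (0.40 to 0.53) on the log2(FPKM + 1) scale, on which every change below is given. It did not pass the paired test (mean change 0.40 ± 0.21 standard error, limma adjusted p = 0.203), nor did its difference from MFN2 WT (adjusted p = 0.665). Counting intervals are exact binomial (Clopper-Pearson) and cover counting error only.

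More genes were higher than lower at PD 52 in MFN2 cKO, but in L/Z this turned with the scaling and with the class of genes. With a 2-fold difference as the limit, 2409 genes (12.0% of those compared) were higher in P and 927 (4.60%) were lower. In L/Z, 3483 (17.3%) were higher and 2336 (11.6%) lower. With scaling to equal total reads 2562 were higher and 4015 lower in L/Z, and among protein-coding genes 1645 were higher and 1936 lower. The stages mostly moved alike: 1765 genes (8.77%) were higher and 431 (2.14%) lower by 2-fold or more at both, while 20 were lower in P and higher in L/Z and 23 the reverse. Across the 20134 genes the changes at the 2 stages had a Pearson correlation of 0.75, which describes these libraries and has no test, since genes are not independent replicates.

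In MFN2 WT fewer genes changed 2-fold at both stages than in MFN2 cKO. By that limit 1522 genes (7.56%) were higher and 780 (3.87%) lower in P, and 1275 (6.33%) higher and 866 (4.30%) lower in L/Z. The distance between PD 52 and PD 24 over all genes was 116 in P and 154 in L/Z of MFN2 cKO, against 92.6 and 91.1 in MFN2 WT. Of the 1765 genes higher at both stages in MFN2 cKO, 1538 were also higher in both MFN2 WT pairs and 18 were lower in both, with a median change of 1.86 in MFN2 cKO and 0.92 in MFN2 WT. These genes were chosen by their change in MFN2 cKO, which favours a larger value there, so these medians do not compare the genotypes. Genes at least 2-fold higher at both stages in both genotypes numbered 460, which is 26.1% of the MFN2 cKO genes and 82.3% of the MFN2 WT genes. At both stages 559 MFN2 WT genes (2.78%) were higher and 173 (0.859%) lower. Of the 431 genes lower in MFN2 cKO, 282 were lower in both MFN2 WT pairs and 18 higher in both.

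The paired limma fit over all 8 libraries called 2408 genes (12.0%) higher and 925 (4.59%) lower at PD 52 in MFN2 cKO at an adjusted p under 0.05, with 7668 genes at an unadjusted p under 0.05. With scaling to equal total reads the calls were 1788 higher and 1186 lower, and among protein-coding genes alone 1639 higher and 1521 lower, so the surplus of rises depends on both choices. In MFN2 WT no gene was called, with 3899 at an unadjusted p under 0.05, and limma-voom on the reads called 818 higher and 329 lower. The difference between the genotypes called no gene in the limma fit, with 1900 (9.44%) at an unadjusted p under 0.05, and 331 higher and 12 lower with limma-voom. These p-values measure the spread between the P and L/Z pairs, since no group has a repeat of its own. Leaving out either MFN2 cKO pair left no call in MFN2 cKO, and without the stage pair as a block 1 gene was called.

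**Figure D1:**
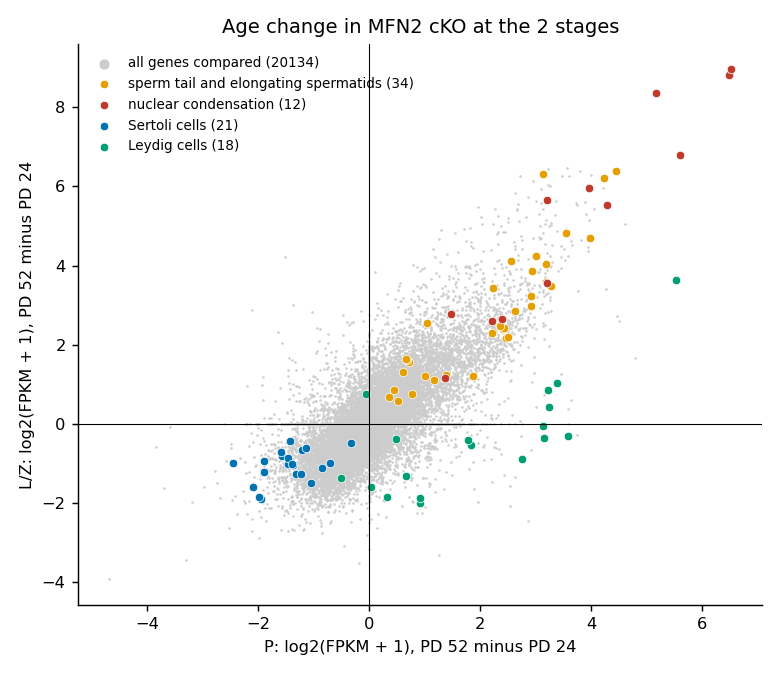
Change in log2(FPKM + 1) from PD 24 to PD 52 in MFN2 cKO, in P (horizontal axis) and in L/Z (vertical axis), 1 point for each of the 20134 genes, with 4 gene lists in colour. Nuclear condensation and sperm tail genes lie at the upper right, Sertoli cell genes at the lower left, and most Leydig cell genes to the right near or below the horizontal line.

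The largest rises were those of the genes that pack the sperm nucleus. Over all genes 12.0% were called higher and 4.59% lower, and the counts of each list stand against these shares. Limma-voom called 3332 higher and 2404 lower of all 20134 genes, and the fit of protein-coding genes alone 1639 and 1521 of 13855. All 12 genes of the nuclear condensation list rose, each at least 2-fold at both stages, with median changes of 3.59 in P and 5.6 in L/Z and of 1.42 in P and 1.4 in L/Z of MFN2 WT. The protamines Prm1 and Prm2 are the small basic proteins that wrap the DNA of the mature sperm head. In MFN2 cKO, Prm2 went from 3.07 to 375 FPKM in P and from 7.06 to 4017 in L/Z. Prm1 went from 3.3 to 384 FPKM in P and from 9.48 to 4717 in L/Z. At PD 24 both genes stood far below their MFN2 WT level, where Prm1 was at 218 FPKM in P and 424 in L/Z. At PD 52 Prm1 was still lower than the 1120 FPKM of MFN2 WT in P, but higher than its 2081 FPKM in L/Z. The mean change of Prm2 was 7.75 ± 0.52 (standard error, adjusted p = 0.00186) and that of Prm1 7.65 ± 0.50 (adjusted p = 0.00186).

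The transition proteins Tnp1 and Tnp2, which take the place of histones before the protamines do, rose too. Tnp1 went from 1.85 to 137 FPKM in P and from 14.3 to 1711 in L/Z in MFN2 cKO and from 103 to 379 FPKM in P and from 211 to 759 in L/Z in MFN2 WT. Tnp2 went from 15.3 to 584 FPKM in P and from 17.9 to 6254 in L/Z in MFN2 cKO and from 411 to 1145 FPKM in P and from 778 to 2684 in L/Z in MFN2 WT. For both, as for the protamines, the MFN2 cKO level was the lower of the genotypes in 3 of the 4 matched pairs and the higher in L/Z at PD 52. The change from 15 to 871 reads for Tnp1 in P gives a counting interval of 5.09 to 6.1 around its change of 5.6.

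The promoters of these 4 genes are shown because they had the largest rises and 3 of them, Prm1, Prm2 and Tnp2, neighbour each other on chromosome 16. Each RefSeq window (GRCm38.p6) runs from 250 bases before to 50 bases after the annotated start on the reverse strand. Capitals mark matches, on either strand, to TGANGTCA, a form of the element bound by CREB and CREM, or to TATANA, a form of the TATA box. They are matches of letters and not known sites.
Prm1, chr16:10796774-10797073: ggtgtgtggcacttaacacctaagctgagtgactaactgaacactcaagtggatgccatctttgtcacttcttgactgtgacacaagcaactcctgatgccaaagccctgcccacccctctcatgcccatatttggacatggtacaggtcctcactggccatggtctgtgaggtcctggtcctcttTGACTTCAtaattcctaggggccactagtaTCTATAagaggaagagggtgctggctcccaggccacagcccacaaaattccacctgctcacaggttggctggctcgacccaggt
Prm2, chr16:10792056-10792355: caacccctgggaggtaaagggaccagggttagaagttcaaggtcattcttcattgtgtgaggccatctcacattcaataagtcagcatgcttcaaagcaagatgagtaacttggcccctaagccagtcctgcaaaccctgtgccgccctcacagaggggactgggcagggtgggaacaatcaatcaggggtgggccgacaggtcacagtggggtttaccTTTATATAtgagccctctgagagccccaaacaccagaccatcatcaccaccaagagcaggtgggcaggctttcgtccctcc
Tnp2, chr16:10788606-10788905: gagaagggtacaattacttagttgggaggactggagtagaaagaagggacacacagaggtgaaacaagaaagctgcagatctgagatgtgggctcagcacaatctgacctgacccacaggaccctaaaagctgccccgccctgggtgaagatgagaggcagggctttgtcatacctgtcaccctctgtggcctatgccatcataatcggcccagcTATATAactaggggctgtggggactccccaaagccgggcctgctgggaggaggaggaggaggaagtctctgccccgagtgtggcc
Tnp1, chr1:73015850-73016149: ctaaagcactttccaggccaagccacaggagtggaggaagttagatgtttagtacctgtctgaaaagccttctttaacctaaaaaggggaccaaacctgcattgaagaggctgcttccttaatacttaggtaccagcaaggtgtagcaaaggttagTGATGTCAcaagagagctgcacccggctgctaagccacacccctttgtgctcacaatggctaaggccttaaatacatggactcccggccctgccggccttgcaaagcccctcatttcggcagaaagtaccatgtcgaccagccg
The CREB-type match stands in the Prm1 and Tnp1 windows and the TATA-type match in those of Prm1, Prm2 and Tnp2, with overlapping matches in Prm2. Of the 10 nuclear condensation genes found in the RefSeq table, 4 hold TGANGTCA (Hils1, Prm1, Prm3 and Tnp1) and 3 hold TATANA. Over all 32851 windows, 8.83% hold the first and 24.7% the second. Counted by gene symbol, 2708 and 7527 (27.9%) of 27025 do. Crem, the gene of CREM, rose in MFN2 cKO from 18.4 to 30.7 FPKM in P and from 27 to 53.6 in L/Z, measured over the whole gene. It was picked with its values known, and a link to the matches or to the rises was not tested.

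H2al2a, a histone variant of condensing spermatids whose reads are uncertain because it has near-identical copies, went from 0.992 to 30.1 FPKM in P and from 2.6 to 225 in L/Z, with changes of 3.97 in P and 5.97 in L/Z and of 1.36 in P and 1.37 in L/Z of MFN2 WT. H1fnt, a testis linker histone, went from 2.75 to 72.7 FPKM in P and from 8.1 to 420 in L/Z. Tssk6, a spermatid kinase needed for the histone exchange, went from 1.01 to 17.4 FPKM in P and from 1.86 to 144 in L/Z. The linker histone Hils1 changed less, from 24.8 to 136 FPKM in P and from 90.8 to 577 in L/Z, and H2afb1, the smallest mean change in the list, by 1.37 in P and 1.16 in L/Z. The chromatin remodeller Chd5 changed by 2.21 in P of MFN2 cKO and by 0.21 in P of MFN2 WT. The change in MFN2 cKO exceeded that in MFN2 WT by a log2 of 1 or more at both stages for 11 of the 12 genes, against 3.69% of all genes.

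**Figure D2:**
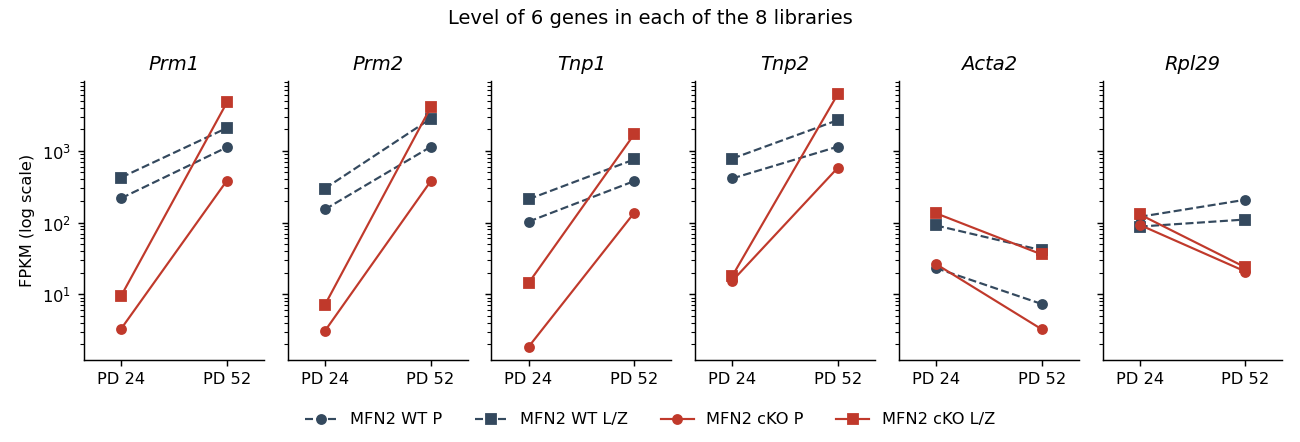
FPKM on a log axis of 6 genes at PD 24 and PD 52, 1 point for each of the 8 libraries (circles P, squares L/Z, solid red MFN2 cKO, dashed dark MFN2 WT). The protamine and transition protein genes start lower in MFN2 cKO at PD 24, Acta2 is lower at PD 52 in both genotypes, and Rpl29 is lower at PD 52 in MFN2 cKO and higher in MFN2 WT.

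Genes of the tail and of elongating spermatids rose nearly as a group. Of 34 compared, 32 rose and none fell, with median changes of 2.42 in P and 2.45 in L/Z, against 1.21 in P and 0.91 in L/Z of MFN2 WT. Smcp, a protein of the capsule around sperm mitochondria, was the most abundant of those that rose at least 2-fold at both stages and went from 36.6 to 364 FPKM in P and from 148 to 1660 in L/Z. Odf1, of the outer dense fibres, went from 29.3 to 227 FPKM in P and from 129 to 1015 in L/Z. Akap4, of the fibrous sheath, went from 13.5 to 132 FPKM in P and from 40.4 to 675 in L/Z, and Gapdhs, the sperm form of a glycolytic enzyme bound to that sheath, from 17.4 to 167 FPKM in P and from 60.9 to 738 in L/Z.

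The steepest tail genes were barely measurable at PD 24. Spem1, needed to strip cytoplasm from the sperm head, went from 19 to 638 reads in P and from 56 to 5126 reads in L/Z of MFN2 cKO. Cabs1, a calcium-binding tail protein, had 22 and 65 reads and then 715 and 5576. In the whole list MFN2 cKO was below MFN2 WT for 34 of 34 genes at PD 24 in P and 29 in L/Z. At PD 52 it was below for 25 in P and for 0 in L/Z. The most abundant members changed less. Ropn1l, a tail protein that binds kinase anchors, changed by 0.53 in P and 0.56 in L/Z, close to the 0.53 in P and 0.60 in L/Z of MFN2 WT, and Odf2, a dense fibre and centrosome protein, by 0.71 in P and 1.56 in L/Z.

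Among genes of round spermatids, which form the acrosome, 21 of 27 rose and 20 were at least 2-fold higher at both stages, against 8 in MFN2 WT. Median changes were 2.2 in P and 1.71 in L/Z, and 1.17 in P and 0.91 in L/Z of MFN2 WT. The acrosome protein Acrv1 went from 5.9 to 35.8 FPKM in P and from 24.1 to 90.4 in L/Z. The spermatid kinase Tssk2 went from 12.1 to 90.2 FPKM in P and from 47.6 to 367 in L/Z, and Izumo1, the sperm protein that binds the egg, from 4.22 to 18.7 FPKM in P and from 16.1 to 50.2 in L/Z. The 6 genes that did not pass included the abundant Zpbp2, Spata16 and Adam5, with changes in P of 0.33, 0.51 and 0.32. Unlike the condensation list, this list had a larger median change in P than in L/Z, and its summed level went from 1016 to 2148 in P and from 1675 to 4270 in L/Z.

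Among the 10 largest rises, 3 were of genes on none of the lists. Spem2, a partner of Spem1, went from 1.18 to 39.6 FPKM in P and from 3.13 to 255 in L/Z. The uncharacterised gene 1700015G11Rik had no read in P of MFN2 cKO at PD 24 and 86 reads at PD 52, and 1700012A03Rik went from 0.16 to 12.7 FPKM in P and from 0.615 to 141 in L/Z. In bulk libraries, more cells of a type and more RNA per cell cannot be told apart.

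**Figure D3:**
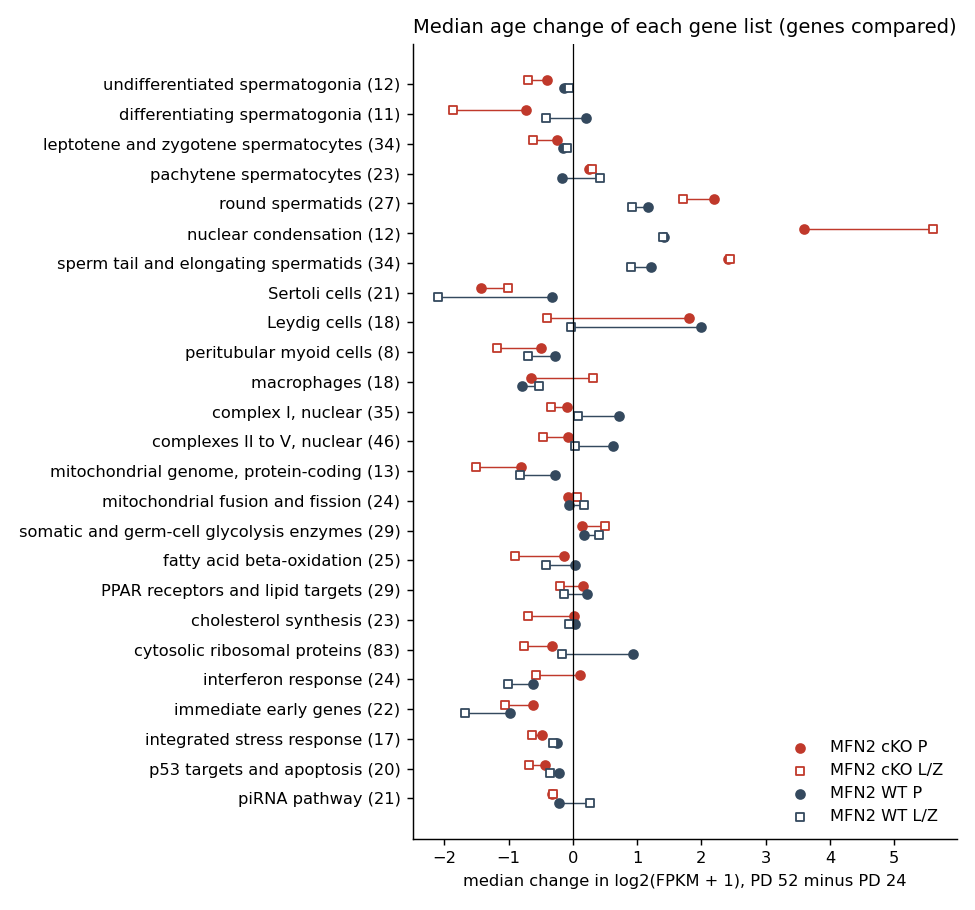
Median change in log2(FPKM + 1) from PD 24 to PD 52 of 25 gene lists, with the number of genes compared in brackets (filled circles P, open squares L/Z, red MFN2 cKO, dark MFN2 WT). Nuclear condensation reaches 3.59 and 5.60 in MFN2 cKO and stays at 1.42 and 1.4 in MFN2 WT.

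Genes of pachytene spermatocytes changed little. Of 23 compared, 4 rose and 1 fell, and their median change was 0.26 in P and 0.30 in L/Z. Called rises were near the 12.0% of all genes and falls near the 4.59%. With scaling to equal total reads the median was 0.11 in P and -0.093 in L/Z, and 1 gene rose. The genes that rose were Pgk2, the germ-cell phosphoglycerate kinase, Crem, Meig1, a spermiogenesis gene that is also in the tail list, and Ldhc, the germ-cell lactate dehydrogenase. Ldhc, the most abundant gene of the list, went from 1647 to 2141 FPKM in P and from 1622 to 2439 in L/Z, with changes of 0.38 in P and 0.59 in L/Z beside 0.50 in P and 0.51 in L/Z of MFN2 WT. Tex101, a germ-cell surface protein, fell in MFN2 cKO from 152 to 77.8 FPKM in P and from 105 to 28.4 in L/Z, and had changes of 0.32 in P and -0.54 in L/Z in MFN2 WT.

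Genes of leptotene and zygotene changed more in the L/Z fraction than in P. In L/Z 12 of 34 were at least 2-fold lower and 3 higher at PD 52 (11.6% and 17.3% of all genes were). In P none was lower and 1 higher (4.60% and 12.0% of all genes were). The medians were -0.25 in P and -0.62 in L/Z, against -0.15 in P and -0.088 in L/Z of MFN2 WT. Among the lower genes in L/Z was Dmc1, a meiotic strand-exchange protein, which went from 5.56 to 3.59 FPKM in P and from 17.2 to 5.2 in L/Z. Hormad1, a protein of unpaired chromosome axes, went from 54.1 to 36.9 FPKM in P and from 39.9 to 10.3 in L/Z. Neither passed the paired test. The 2 genes that did, M1ap and the cohesin Rec8, rose, Rec8 from 12.7 to 25.9 FPKM in P and from 27 to 58.1 in L/Z, while with scaling to equal total reads 1 gene rose and 2 fell. Limma-voom called 3 higher and 9 lower, and the fit of protein-coding genes alone 3 higher and 6 lower, so the balance of calls depends on the fit. The abundant synaptonemal complex gene Syce1 changed by 0.26 in P and 0.23 in L/Z, and the cohesin Stag3 by 0.21 in P and 0.39 in L/Z.

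Genes of differentiating spermatogonia, the cells about to enter meiosis, were lower at PD 52 in MFN2 cKO. Of 11 compared, 4 fell and none rose, while limma-voom called 10 lower and the fit of protein-coding genes alone 7. At both stages 4 were at least 2-fold lower (2.14% of all genes were), against none in MFN2 WT. The median changes were -0.73 in P and -1.86 in L/Z, beside 0.20 in P and -0.42 in L/Z of MFN2 WT. Crabp1, a retinoic acid binding protein, fell from 14.6 to 4.98 FPKM in P and from 41.4 to 5.71 in L/Z, whereas in MFN2 WT it went from 9.83 to 17.8 FPKM in P and from 22.6 to 17.5 in L/Z. Uchl1, a ubiquitin hydrolase of spermatogonia, fell from 45.4 to 18 FPKM in P and from 71.2 to 18.8 in L/Z. Sohlh1, a transcription factor of spermatogonia, fell from 9.18 to 4.17 FPKM in P and from 22 to 4.14 in L/Z, and Dnmt3b, a DNA methyltransferase, from 4.79 to 1.82 FPKM in P and from 5.02 to 1.7 in L/Z. Stra8, the retinoic acid target whose promoter drives the Cre, went from 12.8 to 7.34 FPKM in P and from 23.8 to 5.5 in L/Z and did not pass the test.

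Dmrtb1, the most abundant of the list, was higher at PD 52, from 309 to 424 FPKM in P and from 316 to 435 in L/Z, and did not pass. Of the undifferentiated spermatogonia list, 12 of 16 genes were compared, at low levels, and Lin28a, an RNA-binding protein, and Sall4, a stem-cell transcription factor, fell. Lin28a went from 5.41 to 2.38 FPKM in P and from 11.1 to 3.3 in L/Z, while in MFN2 WT it changed by -0.11 in P and -0.047 in L/Z. Id4, of the stem cells themselves, changed by -0.44 in P and -0.84 in L/Z and did not pass. The difference between genotypes passed for no gene of either list.

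Genes of somatic cells of the testis moved with age too, and their part in the other changes was not tested. Genes of Sertoli cells, which nurse the germ cells, were lower at PD 52 in MFN2 cKO at both stages, where the summed level of 22 genes went from 1581 to 632 in P and from 446 to 181 in L/Z. In MFN2 WT it went from 1259 to 1438 in P and from 499 to 64.2 in L/Z. There 2 of 21 genes compared were at least 2-fold lower in P and 18 in L/Z, with medians of -0.32 and -2.10. In P of MFN2 WT 14 of the 21 were lower by any amount, although the sum rose. In P of MFN2 cKO 18 of 21 genes were at least 2-fold lower and none higher (4.60% of all genes were lower), and in L/Z 11 were lower (11.6% of all genes were). The medians in MFN2 cKO were -1.43 in P and -1.01 in L/Z. The paired test called 4 lower: Amh, the anti-Müllerian hormone of immature Sertoli cells, Shbg, Fshr, the receptor of follicle-stimulating hormone, and Kitl, the ligand of the Kit receptor. Amh went from 11.6 to 1.32 FPKM in P and from 1.96 to 0.492 in L/Z, and in MFN2 WT it went from 12.3 to 2.87 FPKM in P and from 3.83 to 0.40 in L/Z. Clu, the most abundant, went from 385 to 186 FPKM in P and from 103 to 35.7 in L/Z and did not pass.

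Leydig cells, the source of testosterone, lie outside the tubules, and their genes changed by fraction. Their summed level went from 221 to 996 in P and from 311 to 174 in L/Z in MFN2 cKO and from 69.4 to 423 in P and from 78.2 to 61.8 in L/Z in MFN2 WT. In P of MFN2 cKO 10 of 18 genes were at least 2-fold higher (12.0% of all genes were) and none lower. In L/Z 2 were higher and 6 lower (17.3% and 11.6% of all genes were). Cyp17a1, an enzyme of androgen synthesis, went from 22.4 to 204 FPKM in P and from 29.4 to 28 in L/Z, and Insl3, the hormone that guides descent of the testis, from 39.4 to 273 FPKM in P and from 71.4 to 37.8 in L/Z. Of them 1 rose by the paired test, Ptgds, prostaglandin D synthase, from 1.08 to 94.9 FPKM in P and from 0.376 to 16.2 in L/Z, and moved alike in MFN2 WT, from 1.05 to 62.3 FPKM in P and from 0.353 to 6.12 in L/Z.

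**Figure D4:**
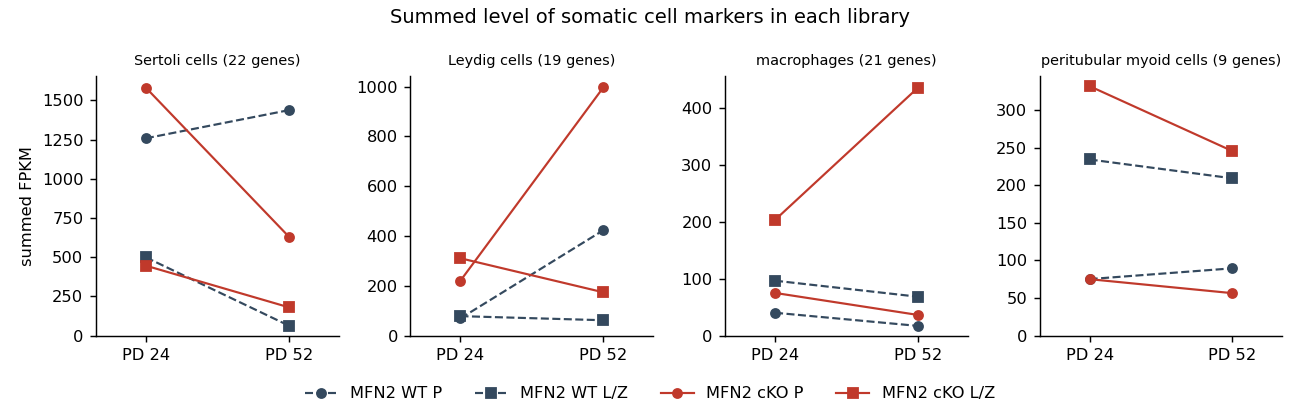
Summed FPKM of the markers of 4 somatic cell types at PD 24 and PD 52 in each of the 8 libraries (circles P, squares L/Z, solid red MFN2 cKO, dashed dark MFN2 WT). The Sertoli cell sum in P of MFN2 cKO goes from 1581 to 632 and the Leydig cell sum there from 221 to 996, while macrophage signal is highest in MFN2 cKO L/Z at PD 52.

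Of the contractile genes of peritubular myoid cells, the muscle-like cells around the tubules, Acta2 was among the 10 largest falls. Acta2, smooth muscle actin, fell from 26.4 to 3.25 FPKM in P and from 135 to 35.9 in L/Z, with changes of -2.69 in P and -1.88 in L/Z (adjusted p = 0.0045) and of -1.54 in P and -1.13 in L/Z of MFN2 WT. Myh11, smooth muscle myosin, fell from 3.88 to 0.789 FPKM in P and from 14.4 to 5.69 in L/Z, and Myl9, its light chain, from 34.3 to 12.2 FPKM in P and from 138 to 32.4 in L/Z. Actg2, a further smooth muscle actin, went the other way and rose from 5.39 to 37.7 FPKM in P and from 18.1 to 162 in L/Z, so that the list did not move as 1 group (1 rose and 3 fell of 8). The 2 extracellular matrix genes named by the rule for the largest falls, Eln (elastin) and Mfap4, a microfibril protein, fell with Acta2. Eln went from 4.91 to 0.374 FPKM in P and from 20.7 to 2.31 in L/Z in MFN2 cKO and from 5.87 to 0.308 FPKM in P and from 23.1 to 1.6 in L/Z in MFN2 WT.

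Macrophage genes differed between the fractions. Their summed level went from 75.1 to 36.4 in P and from 204 to 436 in L/Z in MFN2 cKO and from 40.2 to 17.1 in P and from 96.7 to 68.5 in L/Z in MFN2 WT. With scaling to equal total reads the L/Z median of the list changed sign, from 0.32 to -0.057. In P 6 of 18 genes were at least 2-fold lower (4.60% of all genes were), and in L/Z 4 were at least 2-fold higher (17.3% of all genes were, a share close to that of the list). The 4 were those of antigen presentation: Cd74, the invariant chain, which also met the rule for opposite changes and went from 3.62 to 1.27 FPKM in P and from 14.1 to 105 in L/Z, and H2-Aa, H2-Ab1 and H2-Eb1 of class II. H2-Eb1 went from 1.04 to 1.28 FPKM in P and from 4.76 to 43.2 in L/Z. The complement genes typical of tissue macrophages did not follow, as C1qa went from 8.43 to 2.38 FPKM in P and from 29 to 35.3 in L/Z. No macrophage gene passed the paired test. Of 10 endothelial genes, whose summed level was 5.94 to 8.93 FPKM in the 4 libraries, 5 were compared and none changed 2-fold. The erythroid genes Hba-a1 and Hbb-bs were high in 1 library, L/Z of MFN2 cKO at PD 24, with Hbb-bs at 32.3 FPKM there and between 0.449 and 1.87 in the other 3, and these genes share reads with near-identical copies.

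The other genes of opposite change were few. Gm10377, a predicted gene, went from 2.93 to 0.383 FPKM in P and from 0.314 to 23.2 in L/Z. Ass1, argininosuccinate synthase, went from 4.83 to 19.4 FPKM in P and from 8.03 to 3.06 in L/Z, Itih2 from 4.43 to 11.4 FPKM in P and from 6.96 to 1.38 in L/Z and Fxyd1, a regulator of the sodium pump, from 2.83 to 7.22 FPKM in P and from 13 to 5.91 in L/Z. These 3 were named for being higher in P and lower in L/Z of MFN2 cKO. Sharing that pattern with the Leydig genes was therefore fixed by the rule. In MFN2 WT, which the rule did not use, they had the same signs.

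Among enzymes of glycolysis, some germ-cell forms rose and some somatic forms fell. Of 29 compared, 9 rose and 3 fell. The genes that rose included Gapdhs, above, the sperm aldolase Aldoart2, from 15.9 to 99 FPKM in P and from 60.2 to 325 in L/Z, its relative Aldoart1, from 4.24 to 29.2 FPKM in P and from 15.8 to 89.1 in L/Z, and Pgk2, from 135 to 243 FPKM in P and from 240 to 651 in L/Z. Hk1, a hexokinase with a sperm form, rose from 27.5 to 81.6 FPKM in P and from 40.3 to 223 in L/Z. The genes that fell were Pgk1, from 10.2 to 4.97 FPKM in P and from 12.9 to 5.85 in L/Z, Pgam1, from 34.2 to 16.5 FPKM in P and from 27.5 to 10.5 in L/Z, and Pdha1, of pyruvate dehydrogenase, from 2.04 to 0.775 FPKM in P and from 4.62 to 1.47 in L/Z. The X-linked Pgk1 and Pdha1 are the counterparts of the autosomal Pgk2 and Pdha2, and Pdha2 changed by 0.10 in P and 0.50 in L/Z and did not pass. The list median was 0.13 in P and 0.50 in L/Z, and -0.0029 in P and 0.11 in L/Z with scaling to equal total reads, which called 6 rises.

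Nuclear genes of the respiratory chain had medians near or below 0 in MFN2 cKO and above 0 in P of MFN2 WT. The 35 genes of complex I compared had medians of -0.091 in P and -0.33 in L/Z, against 0.71 in P and 0.074 in L/Z of MFN2 WT, and none was called. The L/Z medians of MFN2 WT, for these and for the other complexes, turned below 0 with scaling to equal total reads. The 46 genes of complexes II to V had medians of -0.07 in P and -0.46 in L/Z, against 0.62 in P and 0.038 in L/Z. Of these, 3 fell: Cycs, the somatic cytochrome c, Cyc1, of complex III, and Cox7a1, a muscle-type subunit of complex IV, a share near the 4.59% of all genes. Cycs went from 13 to 5.53 FPKM in P and from 11.6 to 4.3 in L/Z, while in MFN2 WT it went from 10.3 to 14.6 FPKM in P and from 7.46 to 4.44 in L/Z. For 10 of the 35 complex I genes and 9 of the 46 others, MFN2 cKO was lower at PD 52 at both stages and MFN2 WT higher at both, a pattern that 3.16% of all genes had, while 2.03% had the reverse. These counts were made without that scaling. P of MFN2 WT at PD 52 was the highest library for both lists. The complex I sum was 2272 there and 1020 to 1444 in the others, and that of complexes II to V 6011 and 2711 to 3945. The germ-cell subunit Cox8c, the most abundant, went from 737 to 811 FPKM in P and from 715 to 659 in L/Z, a change of 0.14 in P and -0.12 in L/Z.

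Transcripts of the mitochondrial genome were lower at PD 52. Of 13 protein-coding genes, 7 fell and none rose, and the medians were -0.81 in P and -1.51 in L/Z, against -0.28 in P and -0.83 in L/Z of MFN2 WT. The most abundant, mt-Co1, of complex IV, fell from 4374 to 2987 FPKM in P and from 3397 to 1637 in L/Z, and mt-Cytb, of complex III, from 1823 to 952 FPKM in P and from 1685 to 590 in L/Z. These genes have copies in the nuclear genome, so their reads are uncertain. Genes of mitochondrial fusion and fission had medians of -0.083 in P and 0.066 in L/Z, the second of which turned to -0.30 with scaling to equal total reads. Of 24, 1 rose, Mtfr1, a regulator of fission, from 23.9 to 45.7 FPKM in P and from 27.5 to 84.5 in L/Z. Mfn1, the paralogue of Mfn2, went from 13.1 to 13.4 FPKM in P and from 13.7 to 12.5 in L/Z, Opa1, which fuses the inner membrane, from 8.21 to 7.63 FPKM in P and from 7.59 to 7.83 in L/Z, and Dnm1l, which divides mitochondria, from 15.4 to 16 FPKM in P and from 15.7 to 21.9 in L/Z.

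Of 29 genes of PPAR receptors and their lipid targets, 8 rose and none fell, and 6 were at least 2-fold higher at both stages, against 12.0% and 8.77% of all genes. With scaling to equal total reads 5 rose and 1 fell. Acsbg2, an acyl-CoA synthetase of the testis, rose from 6.57 to 38.1 FPKM in P and from 18.2 to 125 in L/Z, the glycerol channel Aqp7 from 3.93 to 22.9 FPKM in P and from 13.9 to 76.4 in L/Z and Fabp9, the testis fatty acid binding protein, from 244 to 377 FPKM in P and from 292 to 549 in L/Z. The receptor genes were low and did not pass, as Pparg went from 0.801 to 0.817 FPKM in P and from 1.7 to 1.41 in L/Z and Ppard from 0.866 to 0.358 FPKM in P and from 1.09 to 0.546 in L/Z. Fabp3, of muscle and steroidogenic cells, and Cd36, a fatty acid transporter, moved as the Leydig genes did, Fabp3 from 31 to 152 FPKM in P and from 59.1 to 39.2 in L/Z.

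Of 25 genes of fatty acid beta-oxidation none was called, while limma-voom called 3 lower and the fit of protein-coding genes alone 1. In L/Z 12 were at least 2-fold lower, against 5 in MFN2 WT, and in P none. Of all genes 11.6% were lower in L/Z of MFN2 cKO and 4.30% in L/Z of MFN2 WT. Acaa2, the last enzyme of the cycle in mitochondria, went from 27.2 to 23.4 FPKM in P and from 46.4 to 11.3 in L/Z, and from 16.7 to 17.7 FPKM in P and from 14.4 to 3.44 in L/Z in MFN2 WT. Of 23 genes of cholesterol synthesis, 2 rose, Cyp51 and Fdft1, which is squalene synthase, and 1 fell, Mvd, shares no larger than the 12.0% and 4.59% of all genes, and with scaling to equal total reads none rose. Cyp51, whose product in the testis gives a meiosis-activating sterol, went from 5.36 to 13.7 FPKM in P and from 10.8 to 23.4 in L/Z. In L/Z 9 genes of the list were at least 2-fold lower (11.6% of all genes were).

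Most cytosolic ribosomal protein genes were lower at PD 52 in MFN2 cKO. The medians of the 83 compared were -0.32 in P and -0.76 in L/Z of MFN2 cKO and 0.94 in P and -0.16 in L/Z of MFN2 WT. In MFN2 cKO 3 were at least 2-fold lower in P (4.60% of all genes were) and 27 in L/Z (11.6% were), and none was higher at either stage. By the paired test 2 fell, Rpl29 and Rpl34, both of the large subunit. Limma-voom called 20 lower and the fit of protein-coding genes alone 4. Rpl29 fell from 92.8 to 20.7 FPKM in P and from 130 to 23.7 in L/Z and went from 120 to 208 FPKM in P and from 87.8 to 110 in L/Z in MFN2 WT. Rpl34 fell from 50.4 to 13.8 FPKM in P and from 85.4 to 18.6 in L/Z and went from 49.8 to 110 FPKM in P and from 54 to 50.5 in L/Z in MFN2 WT. The difference between genotypes was -2.81 ± 0.28 (standard error) for Rpl29 and -2.48 ± 0.44 for Rpl34, and neither passed the limma test (adjusted p = 0.155 and 0.161). Both passed with limma-voom, which called 12 of all genes lower for this difference. The summed level went from 7676 to 6405 in P and from 13147 to 8301 in L/Z in MFN2 cKO and from 8272 to 16071 in P and from 8149 to 7620 in L/Z in MFN2 WT, where P at PD 52 was the highest library. Ribosomal protein genes have many processed copies in the genome that share their reads, so single genes here are uncertain.

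Of 22 immediate early genes, which answer to acute stimulation and to handling of cells, 7 fell and 1 rose, with medians of -0.62 in P and -1.05 in L/Z and of -0.99 in P and -1.69 in L/Z of MFN2 WT. Egr2 fell from 7.64 to 1.42 FPKM in P and from 6.15 to 1.77 in L/Z and Atf3 from 64.1 to 25 FPKM in P and from 79.1 to 39.5 in L/Z. Klf4, which round spermatids express, rose from 30.5 to 60.0 FPKM in P and from 90.8 to 144 in L/Z. Fos, among the most abundant, went from 148 to 112 FPKM in P and from 364 to 154 in L/Z and did not pass. The levels in MFN2 cKO were above those in MFN2 WT at PD 52 for 21 of the 22 genes in P and 22 in L/Z. At PD 24 they already were for 19 in P and 20 in L/Z.

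Of 24 interferon response genes compared, 1 rose, Isg20, and 4 fell. Irf1, the transcription factor, fell from 34.5 to 17.5 FPKM in P and from 39.1 to 8.36 in L/Z. Cxcl10, a chemokine, went from 31.6 to 35.4 FPKM in P and from 65.7 to 12.7 in L/Z and did not pass, and in MFN2 WT it went from 6.05 to 4.57 FPKM in P and from 12.1 to 2.14 in L/Z. In the list of the integrated stress response, the 3 enzymes that make serine and glycine, Phgdh, Psat1 and Shmt2, fell together with Ppp1r15a, of 17 compared. Phgdh fell from 25.1 to 4.82 FPKM in P and from 14.5 to 3.03 in L/Z. The chaperone Hspa5 went from 197 to 141 FPKM in P and from 379 to 182 in L/Z and did not pass. Among 20 genes of the p53 pathway and apoptosis, Bax, a protein that opens the outer mitochondrial membrane, fell from 8.97 to 3.06 FPKM in P and from 13.6 to 2.26 in L/Z and Sesn1 fell as well, while Bax went from 5.25 to 8.42 FPKM in P and from 7.42 to 6.06 in L/Z in MFN2 WT.

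Of 21 piRNA pathway genes compared, 4 fell, Mov10l1, Fkbp6, Btbd18 and Pnldc1, and none rose. Mov10l1, the helicase that starts piRNA making, fell from 39.3 to 24.2 FPKM in P and from 29.1 to 9.99 in L/Z. The abundant members Mael and Ddx4 changed by 0.38 in P and 0.57 in L/Z and by 0.20 in P and 0.14 in L/Z and did not pass. Of 66 clustered histone genes 20 were compared, and 3 rose and 1 fell, near the 12.0% and 4.59% of all genes. Hist1h4a rose from 4.09 to 19.2 FPKM in P and from 12.7 to 62.4 in L/Z, and these transcripts lack the long poly(A) tails of most mRNAs.

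**Figure D5:**
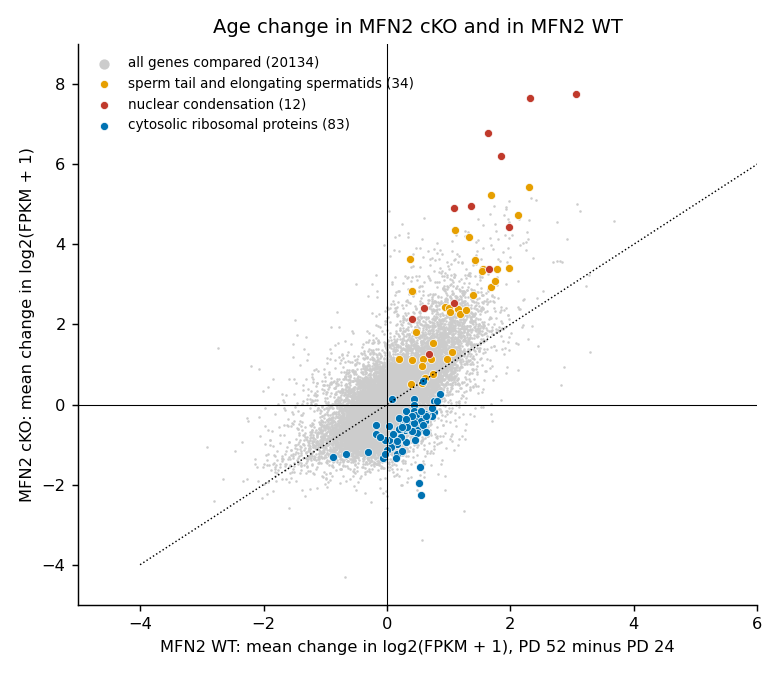
Mean change in log2(FPKM + 1) over the 2 stages from PD 24 to PD 52, in MFN2 WT (horizontal axis) and in MFN2 cKO (vertical axis), 1 point for each of the 20134 genes, with the dotted line where they are equal. Nuclear condensation and most sperm tail genes lie above the line and most ribosomal protein genes below it.

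The change in MFN2 cKO exceeded that in MFN2 WT by a log2 of 1 or more at both stages for 742 genes (3.69%) and fell short of it by as much for 270 (1.34%). By the rule for the largest differences among protein-coding genes, these were Prm1, Tnp2, Prm2, Tnp1 and Prss37 above. Their differences ranged from 4.26 ± 0.75 (standard error) for Prss37 to 5.33 ± 0.70 for Prm1, and the limma adjusted p lay between 0.155 and 0.161. Prss37, a testis serine protease, went from 0.479 to 14.3 FPKM in P and from 0.653 to 81.7 in L/Z in MFN2 cKO and from 17.2 to 14.8 FPKM in P and from 34 to 55.5 in L/Z in MFN2 WT. Below were Gm17720, Rpl29, Rpl34, Gm10282 and Crabp1. Gm17720 rested on 6 reads in P and 1 in L/Z of MFN2 cKO at PD 24 and none at PD 52, too few to give a fold. Gm10282, a predicted gene, went from 23.2 to 9.996 FPKM in P and from 51.1 to 8.32 in L/Z in MFN2 cKO and from 12.1 to 32.5 FPKM in P and from 24.6 to 22 in L/Z in MFN2 WT. With limma-voom 9 of the 12 condensation genes and 14 of 34 tail genes rose more in MFN2 cKO than in MFN2 WT, and no gene of either list rose less. Over all 20134 genes limma-voom called 331 higher and 12 lower for this difference. The limma fit called no gene of either list.

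The largest falls outside the lists were of mixed kinds. Wfdc1, a secreted inhibitor, fell from 27 to 2.06 FPKM in P and from 15 to 3.02 in L/Z, and Tmem114, a claudin-like membrane protein, from 35.2 to 5.97 FPKM in P and from 9.66 to 1.17 in L/Z. Prss35, a secreted protease, fell from 17.6 to 3.8 FPKM in P and from 31.5 to 5.34 in L/Z and Bex2, an X-linked signalling gene, from 12.2 to 2.37 FPKM in P and from 7.43 to 0.833 in L/Z. The X-linked 1700011M02Rik went from 41 to 7.87 FPKM in P and from 12.5 to 2.44 in L/Z and did not pass (adjusted p = 0.143), and in MFN2 WT it went from 33.4 to 63.7 FPKM in P and from 14.6 to 0.477 in L/Z. Except for this gene and Rpl29, every member of this group with more than 10 reads was lower in both MFN2 WT pairs as well.

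Non-coding genes carried more of the rises than of the falls. Of 1631 lincRNA genes compared, 340 (20.9%) were at least 2-fold higher at both stages and 8 lower, and of 986 antisense genes 173 (17.55%) were higher and 1 lower. Of 13855 protein-coding genes 941 (6.79%) were higher and 354 lower. Reads of antisense genes and of the genes they overlap cannot be told apart, as the library kit is not stated to keep the strand. Of 794 chromosome X genes, 110 (13.9%) were higher and 58 (7.31%) lower at both stages, both above the 8.77% and 2.14% of all genes, with medians of -0.17 in P and -0.39 in L/Z. Of 116 chromosome Y genes 1 was higher and none lower.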

How the data were processed

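RNA-seq libraries of P and L/Z spermatocytes from MFN2 cKO and MFN2 WT mice at PD 24 and PD 52 were analysed, 1 library per group. Total RNA was extracted with Trizol and libraries were made with the NEBNext Ultra kit and sequenced as paired reads. The authors deposited 1 table of FPKM per gene and library. The submitters' notes list CASAVA 1.4 and Bowtie 0.12.2 and the builds mm8 and mm9, but 98.1% of the listed genes have coordinates identical to those of GRCm38, and GRCm38 coordinates are given. Whole reads were recovered from the FPKM values (100% whole within 0.01 read) and gave the depth and counting intervals.

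Values were analysed as log2(FPKM + 1), which understates changes of low genes. The fit was limma 3.58.1 in R 4.3.3 over all 8 libraries, with the stage pair of each genotype as a block and Benjamini-Hochberg adjustment over all 20134 genes. PD 52 minus PD 24 was the change in each genotype, and the difference was MFN2 cKO minus MFN2 WT. The pairing is by stage, which the labels give, and not by animal. The scripts were tested on simulated data. Single values were compared by fold, with no test.

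The rule for named genes took Mfn2, then among protein-coding genes over 10 FPKM the 10 largest rises and falls of 2-fold or more at both stages, the 5 largest differences from MFN2 WT each way and the 3 largest opposite changes, and the 3 most abundant members of each list. Other list members named, such as those called, were picked with their values known. The members and lists were chosen with earlier results of these data known. Alternatives were the pseudocount, filters, scaling, gene class, limma-voom on reads, the block and each pair left out, and scaling to equal total reads was added after seeing the data.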

Additional observations from a re-analysis of the deposited data

Results flagged for a closer look

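The genes below, and the medians of the lists below, were lower at PD 52 in both MFN2 cKO pairs and higher in both MFN2 WT pairs. For the 3 lists the direction in MFN2 WT L/Z turned with scaling to equal total reads, where the medians were -0.026 (endothelial), -0.21 (complex I) and -0.25 (complexes II to V), and the L/Z changes in MFN2 WT of Egfl7, Esam, Ndufs5 and Rplp0 were smaller than the 0.23 by which that scaling lowered the median of all genes there. For the genes, each value is the MFN2 cKO change less the MFN2 WT change, in log2(FPKM + 1). The difference was -2.81 for Rpl29, -0.475 for Rplp0, -1.01 for Ndufa2 and -0.57 for Ndufs5, the last 2 of complex I. For the endothelial genes Egfl7 and Esam it was -0.329 and -0.243. None of these 6 passed the limma test of the difference, where Rpl29 had an adjusted p of 0.155 and Ndufa2 of 0.361. With limma-voom Rpl29 passed and the others did not. The median of the members' own differences was 0.0512 over the endothelial list, -0.614 over complex I and -0.624 over complexes II to V. The endothelial value lies above 0 although the list's medians were -0.082 and -0.12 in MFN2 cKO and 0.097 and 0.075 in MFN2 WT (P and L/Z). Differences between genotypes were not tested for lists.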

How the results depend on the processing

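With a pseudocount of 0.1 in place of 1, 6271 genes (4147 higher, 2124 lower) changed 2-fold in P of MFN2 cKO and 9006 (4374 lower) in L/Z. With scaling to equal total reads 2562 were higher and 4015 lower in L/Z. Among protein-coding genes 1752 changed in P (1123 higher) and 3581 in L/Z (1645 higher). The paired calls in MFN2 cKO fell to 822 (787 higher, 35 lower) with no filter on FPKM, and to 1 (1 higher, 0 lower) without the replicate block. Lower calls numbered 1521 among protein-coding genes and 1517 with the 4 MFN2 cKO libraries alone, and limma-voom called 5736 (2404 lower). Leaving out 1 pair gave 0 to 4264 calls (0 to 2705 higher, 0 to 1559 lower), with 0 when either MFN2 cKO pair was left out. In MFN2 WT, protein-coding genes alone gave 329 calls (245 higher, 84 lower) and limma-voom 1147 (818 higher, 329 lower). For the difference between genotypes a pseudocount of 0.1 gave 44 (40 higher, 4 lower), limma-voom 343 (331 higher, 12 lower), and leaving out 1 pair 0 to 1 (0 to 1 lower). The difference between genotypes changed sign when 1 pair was left out for 9 of the genes named by rule. 5 of these (Gm10377, Cd74, Ass1, Itih2 and Fxyd1) had been chosen for opposite changes at the 2 stages. For the other 4 it ranged from -0.017 (without the MFN2 WT L/Z pair) to 0.80 for Eln, and, from without the MFN2 WT L/Z pair to without the MFN2 WT P pair, from -1.27 to 0.64 for Tmem114, from -1 to 0.38 for Prss35 and from -3.02 to 1.30 for 1700011M02Rik. That of Prss35 was also 0.051 with a pseudocount of 0.1 and 0.21 with limma-voom. The causes were not tested. Of the values of single genes under the alternatives, 1455 kept direction and side of the threshold, 163 were weaker, 75 stronger, and 39 and 6 changed sign, the 39 among genes reported without a call. With 1 library per group, no value has an error from repeats of its own group.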
